A study of Mus musculus with 48 samples.

Results

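The comparison described here is that of *R26-LSL-MYC* livers (M), in which MYC alone was switched on, with wild-type livers (WT) 10 days after induction. It comprised the 3 M mice and 3 WT mice that the labels give for day 10, each with a library of ribosome-protected fragments (RPFs, stretches of mRNA that a bound ribosome guards from nuclease) and a library of cytoplasmic RNA, which is 6 of the 24 mice and 12 of the 48 libraries of the series. Per the labels, all mice were males of 2 to 4 months on a mixed C57BL/6 background, and all, WT included, had received AAV8.TBG.Cre by tail vein, a virus that expresses Cre from the hepatocyte promoter TBG, so that recombination was aimed at hepatocytes while the other liver cells kept their alleles. The labels give the same number of viral genome copies once per ml and once per mouse. The other genotypes of the series carried *Ctnnb1ex3/WT* (B) or both alleles (BM), and M and WT livers were also taken at day 4. The sequenced material was whole liver, 1 mouse per library, and in such bulk samples fewer cells of a type and less RNA per cell cannot be told apart.

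MYC is a transcription factor that pairs with MAX and binds E-box sequences such as CACGTG in promoters. It is best known for raising genes of ribosome production, nucleotide synthesis and cell division, and in liver it has been studied as a driver of hepatocyte growth and of cancer. Translation efficiency (TE) is the RPF level of a gene relative to its RNA level, so a gene can change in RPFs through its RNA, through TE, or both.

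RPF counts per library were 9942043 to 12451658 in WT and 12113095 to 13111401 in M, and RNA counts were 4645204 to 5408053 and 4550517 to 5052777, so that RNA levels rested on fewer reads than RPF levels. Levels are given as CPM (counts scaled to a fixed library total) after scaling with TMM (trimmed mean of M values) factors, and changes are the fitted log2 difference of M from WT ± SE (n = 3 mice per group). A gene was called at an adjusted p under 0.1 by the quasi-likelihood test of edgeR, adjusted by Benjamini-Hochberg over all genes tested. The defining hepatocyte markers were abundant in all 6 mice, their summed RPF level of 10 genes lying between 72062 and 134613 CPM. M mouse 3 stood apart from the other M mice: among 2427 genes with a mean RPF level over 50 CPM, 24 were above the range of the other 5 mice by more than 1 log2 unit in this mouse, against 0 in M mouse 1, 0 in M mouse 2 and at most 3 in a WT mouse. Several gene groups are therefore also given without this mouse.

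Of 11300 genes tested in RPFs, 1147 rose in M (10.2%) and 1000 fell (8.85%), and 237 and 146 of these changed by more than 2-fold. In RNA, 969 of 11143 genes rose (8.7%) and 795 fell (7.13%), with 188 and 101 past 2-fold. The median log2 change over all genes tested was -0.00 in RPFs and 0.01 in RNA. Across the 10453 genes tested in both, the RPF and RNA changes had a Pearson correlation of 0.79, a description over genes of the same livers. Both measures called 576 genes higher, which is 52.8% of the RPF calls and 60.9% of the RNA calls, and 479 genes lower, 50.7% and 61.6%. No gene of the 10453 was called in opposite directions. Leaving out M mouse 3, 1491 of 11424 genes rose in RPFs (13.1%) and 1343 fell (11.8%), while the RNA calls were 914 (8.1%) and 816 (7.23%) of 11282. Leaving out other mice lowered the RPF calls, in the sum of both directions, from 2147 to 1183 when WT mouse 3 was dropped, to 1163 for M mouse 1 and to 1372 for M mouse 2, and the RNA calls from 1764 to 1046 for WT mouse 3 and to 910 for M mouse 1.

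**Figure D1:**
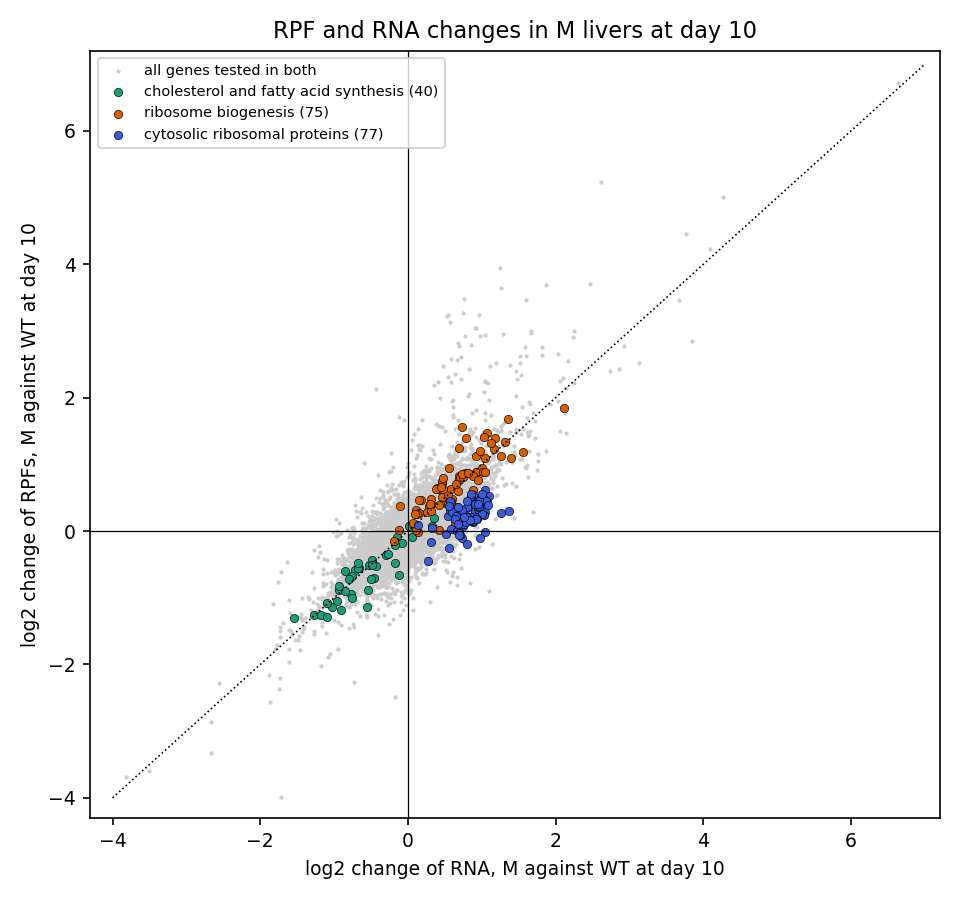
Each grey point is 1 of the 10453 genes tested in both measures, with the fitted log2 change of RNA on the horizontal axis and of RPFs on the vertical axis, M against WT at day 10, and the dotted line marks equal changes. Ribosome biogenesis genes (orange) lay mostly along the line above 0, cholesterol and fatty acid synthesis genes (green) mostly along it below 0, and the 77 cytosolic ribosomal protein genes (blue) below it, with RNA up by a median of 0.80 over the 81 tested in RNA and RPFs by 0.22.

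RPFs assigned to *Myc* were higher in every M mouse, at 42.2, 46.0 and 55.3 CPM, than in WT, at 5.02, 10.9 and 17.5 CPM, a log2 change of 2.13 ± 0.43 (edgeR adjusted p = 0.0364). RNA assigned to *Myc* was 20.3, 21.4 and 26.0 CPM in M and 21.5, 27.8 and 42.8 CPM in WT, with a log2 difference of -0.43 ± 0.23 and an adjusted p of 0.279. The RPF levels of the groups did not overlap, whereas the RNA levels did. The tables list mouse transcripts, and which *Myc* counts came from the transgene cannot be told from them. Without M mouse 3 the RPF change was 2.03 ± 0.48 with an adjusted p of 0.0647. Of 11 tested genes of the MYC network, the partners and antagonists that share its binding sites, RPFs of 2 rose, *Myc* itself and *Mga*, and none fell. *Mga*, a MAX partner, was at 29.1, 33.8 and 37.6 CPM in WT and 50.2, 49.9 and 46.1 CPM in M (0.54 ± 0.11, adjusted p = 0.0154). RNA rose for 3 of 11, *Mga*, the repressor *Mxd4* (0.44 ± 0.12, adjusted p = 0.0284) and *Mlxipl*, which encodes the glucose-responsive factor ChREBP (0.65 ± 0.14, adjusted p = 0.00909). Over all genes 10.2% were called higher in RPFs and 8.7% in RNA.

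Ribosome biogenesis genes, which make, modify and assemble ribosomal RNA, rose together. Of 76 tested in RPFs, 60 rose and 0 fell (median log2 change 0.64), and in RNA 50 of 75 rose and 0 fell (median 0.59), against 10.2% and 8.7% of all genes. The RPF median was 0.73, 0.60 and 0.63 in M mice 1, 2 and 3, so M mouse 3 was not apart here, and without it 62 rose and 0 fell. *Nop56*, a core protein of the particles that methylate ribosomal RNA, was at 20.3, 17.5 and 17.3 CPM of RPFs in WT and 64.5, 57.3 and 54.2 CPM in M, a log2 change of 1.67 ± 0.12 (adjusted p = 0.000141), and its RNA changed by 1.35 ± 0.12 (adjusted p = 5.12e-05). *Gnl3*, the nucleolar GTPase nucleostemin, was at 22.5, 22.8 and 23.3 CPM in WT and 61.4, 65.8 and 63.7 CPM in M (1.48 ± 0.09, adjusted p = 0.000141). For both genes the lowest M mouse was more than 2-fold above the highest WT mouse.

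*Dkc1*, the pseudouridine synthase dyskerin, was at 21.9, 23.9 and 20.8 CPM of RPFs in WT and 70.9, 72.6 and 52.9 CPM in M (1.56 ± 0.14, adjusted p = 0.000412), with a smaller log2 RNA change of 0.74 ± 0.14 (adjusted p = 0.00436). M mouse 3 had the lowest *Dkc1* level of the M mice, still above every WT mouse. *Polr1a*, the largest subunit of RNA polymerase I, changed by 1.41 ± 0.12 in RPFs and 1.03 ± 0.14 in RNA, and *Ppan*, an assembly factor of the large subunit, by 1.85 ± 0.15 and 2.12 ± 0.29, all past the threshold. The abundant nucleolar protein genes were less alike. *Ncl* (nucleolin) rose in RPFs from 247, 292 and 266 CPM in WT to 466, 418 and 598 CPM in M (0.88 ± 0.15, adjusted p = 0.00627). *Npm1* (nucleophosmin) was at 153, 170.3 and 153 CPM of RPFs in WT and 178, 159 and 470.1 CPM in M, where M mouse 3 was far above the other 5 mice, and was not called in RPFs (adjusted p = 0.354), while its RNA rose by 0.95 ± 0.12 (adjusted p = 0.000308).

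RefSeq promoters (GRCm38.p6) were taken from 250 bases before to 50 after the start, and a gene counted when any of its promoters matched. Of 916 genes with a promoter among those whose RPFs rose, 15.5% held the palindromic E-box CACGTG, which reads the same on both strands. The share was 11.8% of 8941 such genes among all tested and 11.0% of 763 among those that fell. Among 68 ribosome biogenesis genes 22.1% held it, among 30 of nucleotide and one-carbon synthesis 20.0%, and among 29 of cholesterol and fatty acid synthesis, a group that fell, 20.7%. The E-box was thus about as frequent in a group that rose as in one that fell, and a match describes the letters only. Windows of 30 bases around it are shown for called members of these groups so that its setting can be read, with the E-box in capitals. All lie on the + strand, for *Nop2* (a ribosomal RNA methyltransferase) at chr6:125131811-125131840, *Wdr43* (a small-subunit processing factor) at chr17:71616220-71616249, *Pes1* (pescadillo, of large-subunit maturation) at chr11:3963965-3963994, *Atic* (purine synthesis) at chr1:71557137-71557166, *Elovl5* (fatty acid elongation) at chr9:77917192-77917221 and *Insig1* (the sterol sensor of the endoplasmic reticulum) at chr5:28071299-28071328.
Nop2: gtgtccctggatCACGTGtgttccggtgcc
Wdr43: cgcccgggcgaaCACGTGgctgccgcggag
Pes1: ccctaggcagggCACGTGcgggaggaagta
Atic: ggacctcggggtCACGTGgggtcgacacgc
Elovl5: actgccccgagaCACGTGaaccacaggaga
Insig1: gctgggtgaggtCACGTGgctccggtggca

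*Nop2* RPFs were 19.9, 16.6 and 17.6 CPM in WT and 49.1, 43.5 and 44.6 CPM in M (1.34 ± 0.11), *Wdr43* RPFs changed by 1.19 ± 0.10 and *Pes1* RPFs by 0.47 ± 0.10. *Pes1* RNA was not called (0.31 ± 0.14, adjusted p = 0.187), although without M mouse 3 it was (adjusted p = 0.0847).

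Enzymes of nucleotide and one-carbon synthesis, which supply the bases of RNA and DNA and methyl groups, formed the next group. Of 38 tested, RPFs of 19 rose and 0 fell (median 0.56), and RNA of 18 rose and 0 fell (median 0.41), against 10.2% and 8.7% of all genes called higher. *Ctps1*, which makes CTP, was at 6.30, 4.84 and 4.90 CPM of RPFs in WT and 21.5, 16.2 and 25.6 CPM in M (1.97 ± 0.20, adjusted p = 0.000687). *Atic*, of the last steps of purine synthesis, was at 45.5, 50.8 and 41.2 CPM and 104, 96.7 and 90.6 CPM (1.08 ± 0.11). All M mice were above all WT mice for both. The purine enzyme *Gart* changed by 0.56 ± 0.11 and the pyrimidine salvage kinase *Uck2* by 1.10 ± 0.14, while *Cad*, which starts pyrimidine synthesis, overlapped between the groups (40.3, 79.0 and 42.2 CPM in WT, 86.6, 79.2 and 72.9 CPM in M, adjusted p = 0.226). *Impdh2*, the rate-limiting enzyme of GTP synthesis, rose in RNA by 1.01 ± 0.11 (adjusted p = 0.000151), but its RPFs were 48.1, 46.4 and 43.0 CPM in WT and 54.4, 47.6 and 98.9 CPM in M, highest in M mouse 3 (adjusted p = 0.264). The RPF median of the whole list was 0.50 without M mouse 3, when 22 rose and 1 fell.

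*Mat2a*, which makes the methyl donor S-adenosylmethionine and is the form of growing cells, was at 57.3, 45.2 and 48.6 CPM of RPFs in WT and 152, 126 and 135 CPM in M (1.45 ± 0.13, adjusted p = 0.000385), with an RNA change of 0.85 ± 0.10. Its M and WT values did not overlap in either measure. Among 11 tested genes of polyamine synthesis, a pathway often named as a MYC target, RPFs of 1 rose, the spermidine synthase *Srm* (0.96 ± 0.21, adjusted p = 0.0270). That share was near the 10.2% of all genes called higher, and the list median was 0.01, with 6 changes above 0 and 5 below. *Odc1*, the first enzyme of the pathway, was at 30.5, 53.6 and 32.9 CPM in WT and 22.0, 16.9 and 39.9 CPM in M, with an adjusted p of 0.421. M mice 1 and 2 lay below every WT mouse and M mouse 3 within the WT range, and without M mouse 3 *Odc1* RPFs were called lower (adjusted p = 0.0610).

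Of 22 aminoacyl-tRNA synthetases, RPFs of 11 rose and 1 fell (median 0.29), against 10.2% and 8.85% of all genes, led by *Vars1*, the valine enzyme, at 64.7, 56.4 and 54.1 CPM in WT and 123, 121 and 155 CPM in M (1.19 ± 0.13, adjusted p = 0.000957). Of 77 mitochondrial ribosomal proteins, 20 rose and 0 fell in RPFs (median 0.19) and 16 rose and 0 fell in RNA. RNA of 23 of 47 translation initiation and elongation factors rose and 0 fell (median 0.29), against 8.7% of all genes called higher in RNA. RPFs of 11 of 46 rose and 1 fell (median 0.18). With M mouse 3 left out 14 rose and 10 fell in RPFs, against 13.1% and 11.8% of all genes. The test of the difference between the measures, TE (RPF relative to RNA), called 0 of the 46 in edgeR (1 higher and 2 lower at an unadjusted p under 0.05). With M mouse 3 left out, TE of 0 was higher and of 10 lower, against 0.132% and 1.2% of all genes. *Eif4a1*, the initiation helicase, rose in RPFs by 0.52 ± 0.11 and in RNA by 0.46 ± 0.12, whereas RPFs of *Eif4b*, its cofactor, were 139.5, 111 and 116 CPM in WT and 87.2, 82.5 and 176 CPM in M, low in M mice 1 and 2 and high in M mouse 3.

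**Figure D2:**
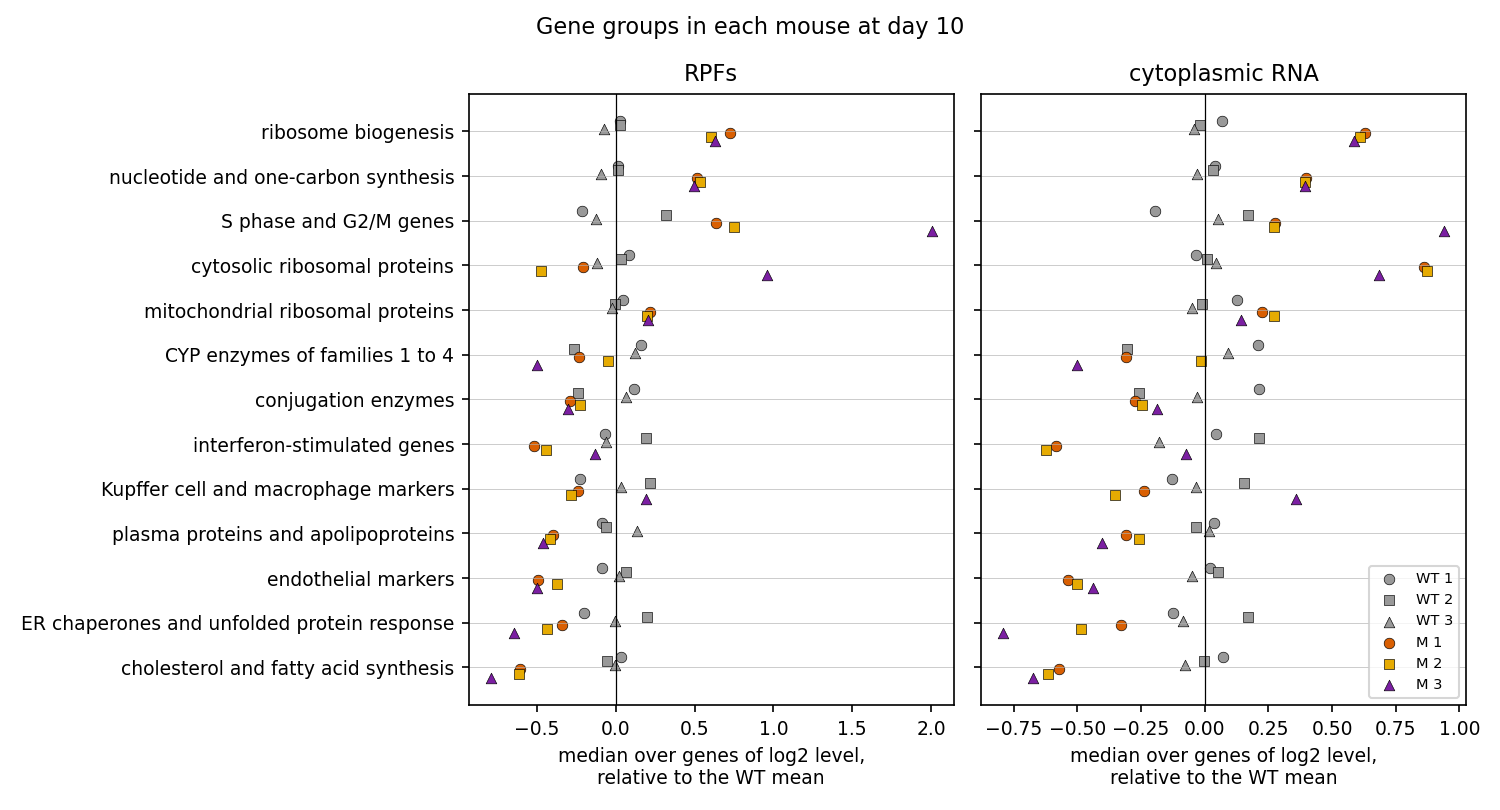
Each symbol is 1 mouse, and its position is the median over the genes of a group of the log2 level relative to the WT mean, for RPFs (left) and cytoplasmic RNA (right). The 3 M mice lay together for ribosome biogenesis, at 0.60 to 0.73 in RPFs, and for cholesterol and fatty acid synthesis, at -0.79 to -0.61, while M mouse 3 (purple triangle) lay apart for S phase and G2/M genes and for cytosolic ribosomal proteins.

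Part of the genes of S phase, G2 and mitosis rose in M, with the highest levels in M mouse 3. Of 97 such genes 90 passed the filter on low counts in RPFs, where 20 rose and 2 fell, and in RNA 18 of 79 rose and 0 fell. Over all genes 10.2% rose in RPFs and 8.7% in RNA. The RPF median relative to the WT mean was 0.64, 0.75 and 2.00 in M mice 1, 2 and 3, and the RNA median 0.27, 0.27 and 0.94. *Cdk1*, the kinase of mitotic entry, was at 3.15, 4.93 and 2.80 CPM of RPFs in WT and 11.3, 9.62 and 37.0 CPM in M (2.40 ± 0.70, adjusted p = 0.0987). *Mki67*, which encodes Ki67, was at 2.81, 5.72 and 3.73 CPM in WT and 11.3, 9.70 and 38.8 CPM in M and was not called (adjusted p = 0.120). *Top2a*, the DNA topoisomerase of replication and mitosis, was at 4.17, 11.2 and 4.90 CPM and 13.5, 14.8 and 72.7 CPM, also not called (adjusted p = 0.199). In each of these genes M mouse 3 was several times above M mice 1 and 2, which were themselves above all WT mice. Without M mouse 3 RPFs of 41 of 91 rose and 4 fell (median 0.74), and RNA of 12 of 80 rose and 2 fell (median 0.23). Counts were low for many of these genes in WT, and of the 90 the 55 with 10 counts in every library had a fitted RPF median of 0.59, against 1.47 for the 90.

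The G1 regulators were mixed, with 6 of 22 higher and 4 lower in RPFs. Over all genes 10.2% were called higher and 8.85% lower. *Ccne1* (cyclin E1) rose from 0.681, 1.18 and 0.233 CPM to 3.12, 2.57 and 3.85 CPM (2.13 ± 0.41, adjusted p = 0.0103), as did the transcription factor *E2f3* (0.98 ± 0.21, adjusted p = 0.0153). *Ccnd1* (cyclin D1) was at 17.6, 25.9 and 12.2 CPM in WT and 11.8, 11.2 and 13.0 CPM in M (adjusted p = 0.131), and the CDK inhibitor *Cdkn1a* at 19.1, 9.77 and 13.9 CPM and 18.2, 16.4 and 22.5 CPM (adjusted p = 0.288), so that both overlapped between the groups. Of 39 p53 targets and apoptosis genes RPFs of 12 rose and 2 fell, shares above and below those over all genes. They included *Eda2r*, a receptor of the TNF family (2.22 ± 0.46 in RPFs and 2.25 ± 0.32 in RNA), and *Mdm2*, the ubiquitin ligase of p53 (0.78 ± 0.15, adjusted p = 0.00994).

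Genes of cholesterol and fatty acid synthesis fell together. RPFs of 32 of 41 genes fell and 0 rose (median -0.66), and RNA of 29 of 40 fell and 1 rose (median -0.67), against 8.85% and 7.13% of all genes called lower. *Scd1*, the stearoyl-CoA desaturase and one of the most abundant liver mRNAs, was at 22752, 22466 and 22802 CPM of RNA in WT and 7861, 9252 and 6158 CPM in M (-1.55 ± 0.21, adjusted p = 0.000483). Its RPFs were 3837, 3669 and 4374 CPM and 1678, 1839.7 and 1296 CPM (-1.30 ± 0.16, adjusted p = 0.00175). In RNA every M mouse was more than 2-fold below the lowest WT mouse. *Elovl5*, of fatty acid elongation, was at 450.0, 455 and 443 CPM of RPFs in WT and 192, 214 and 159 CPM in M (-1.25 ± 0.13), and its RNA fell by a similar amount (-1.27 ± 0.12).

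In the cholesterol branch, RPFs of *Sqle* (squalene epoxidase) were 129.7, 145 and 139 CPM in WT and 75.1, 59.6 and 61.2 CPM in M and fell by 1.08 ± 0.12 on the log2 scale (adjusted p = 0.00102), *Pmvk* (phosphomevalonate kinase) by 1.26 ± 0.18 and *Insig1* by 1.14 ± 0.20. In the fatty acid branch *Acly* (ATP citrate lyase) fell from 981, 1074 and 713 CPM to 508, 458 and 475 CPM and *Me1*, the malic enzyme that supplies NADPH, from 943, 549.7 and 821 CPM to 353, 334 and 333 CPM. Not all members fell: *Fasn* (fatty acid synthase) was at 3712, 2537 and 2027 CPM in WT and 2215, 2008 and 1738 CPM in M (adjusted p = 0.184), *Acaca* at 413, 377 and 377 CPM and 347, 372 and 375 CPM (adjusted p = 0.616), and *Srebf1*, the transcription factor of the pathway, at 293, 208 and 183 CPM and 265, 286 and 171 CPM (adjusted p = 0.863). *Fasn* and *Srebf1* overlapped between the groups, and for *Acaca* the highest M mouse was just below the lowest WT mouse. *Scap*, the escort of SREBP, fell in RPFs (-0.66 ± 0.10, adjusted p = 0.00430) and not in RNA (-0.12 ± 0.11, adjusted p = 0.549). The RPF median of the list was -0.61, -0.62 and -0.79 in M mice 1, 2 and 3.

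Part of the genes for secreted products of hepatocytes also fell. RPFs of 21 of 45 plasma protein and apolipoprotein genes fell and 0 rose (median -0.44), and RNA of 15 of 45 fell and 0 rose, against 8.85% and 7.13% of all genes called lower. *Alb* (albumin) was at 45540.1, 49551 and 60652 CPM of RPFs in WT and 24316, 25282 and 28013 CPM in M (adjusted p = 0.00745), and at 65387, 65684 and 66558 CPM and 26566, 32319.6 and 26072 CPM of RNA (-1.22 ± 0.22, adjusted p = 0.00318). *Trf* (transferrin) changed by -1.10 ± 0.20 in RPFs, *Apoa1*, the main apolipoprotein of high-density lipoprotein, by -0.93 ± 0.15, and *Ttr* (transthyretin) by -0.64 ± 0.15. *Apob*, of very-low-density lipoprotein, had lower values in all M mice but just missed the threshold, being at 21271, 21173 and 24087 CPM in WT and 16804, 17717 and 14012 CPM in M. The growth factor *Igf1* fell in RPFs from 365, 329.6 and 388 CPM to 211, 223 and 245 CPM (-0.67 ± 0.12, adjusted p = 0.00687). Of 10 hepatocyte markers, several of them plasma proteins of the list above, 6 fell and 0 rose in each measure. Their summed RPF level was 107759 to 134613 CPM in WT and 72062 to 74492 CPM in M. Since levels are shares of a library, a fall of such abundant mRNAs and a rise of the others are not independent, which TMM scaling lessens.

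Chaperones of the endoplasmic reticulum and genes of the unfolded protein response, which serve secretion, also fell in part. RPFs of 10 of 25 fell and 0 rose (median -0.56) and RNA of 11 of 25 fell and 0 rose, against 8.85% and 7.13% of all genes. *Dnajb9* was at 79.9, 96.7 and 89.0 CPM of RPFs in WT and 54.5, 56.7 and 45.1 CPM in M (-0.76 ± 0.12, adjusted p = 0.00505), and *Sel1l*, of endoplasmic reticulum degradation, at 279.8, 359.6 and 312 CPM and 205, 208 and 149 CPM (-0.76 ± 0.15). *Hspa5*, the chaperone BiP, was at 2429, 3997 and 3039 CPM in WT and 2586, 2286 and 1544 CPM in M and was not called in RPFs (adjusted p = 0.152), though it was in RNA (-0.63 ± 0.20, adjusted p = 0.0700). In these 3 genes WT mouse 2 was the highest of the 6 mice in RPFs and M mouse 3 the lowest, and without WT mouse 2 the RPF median of the list was -0.35.

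**Figure D3:**
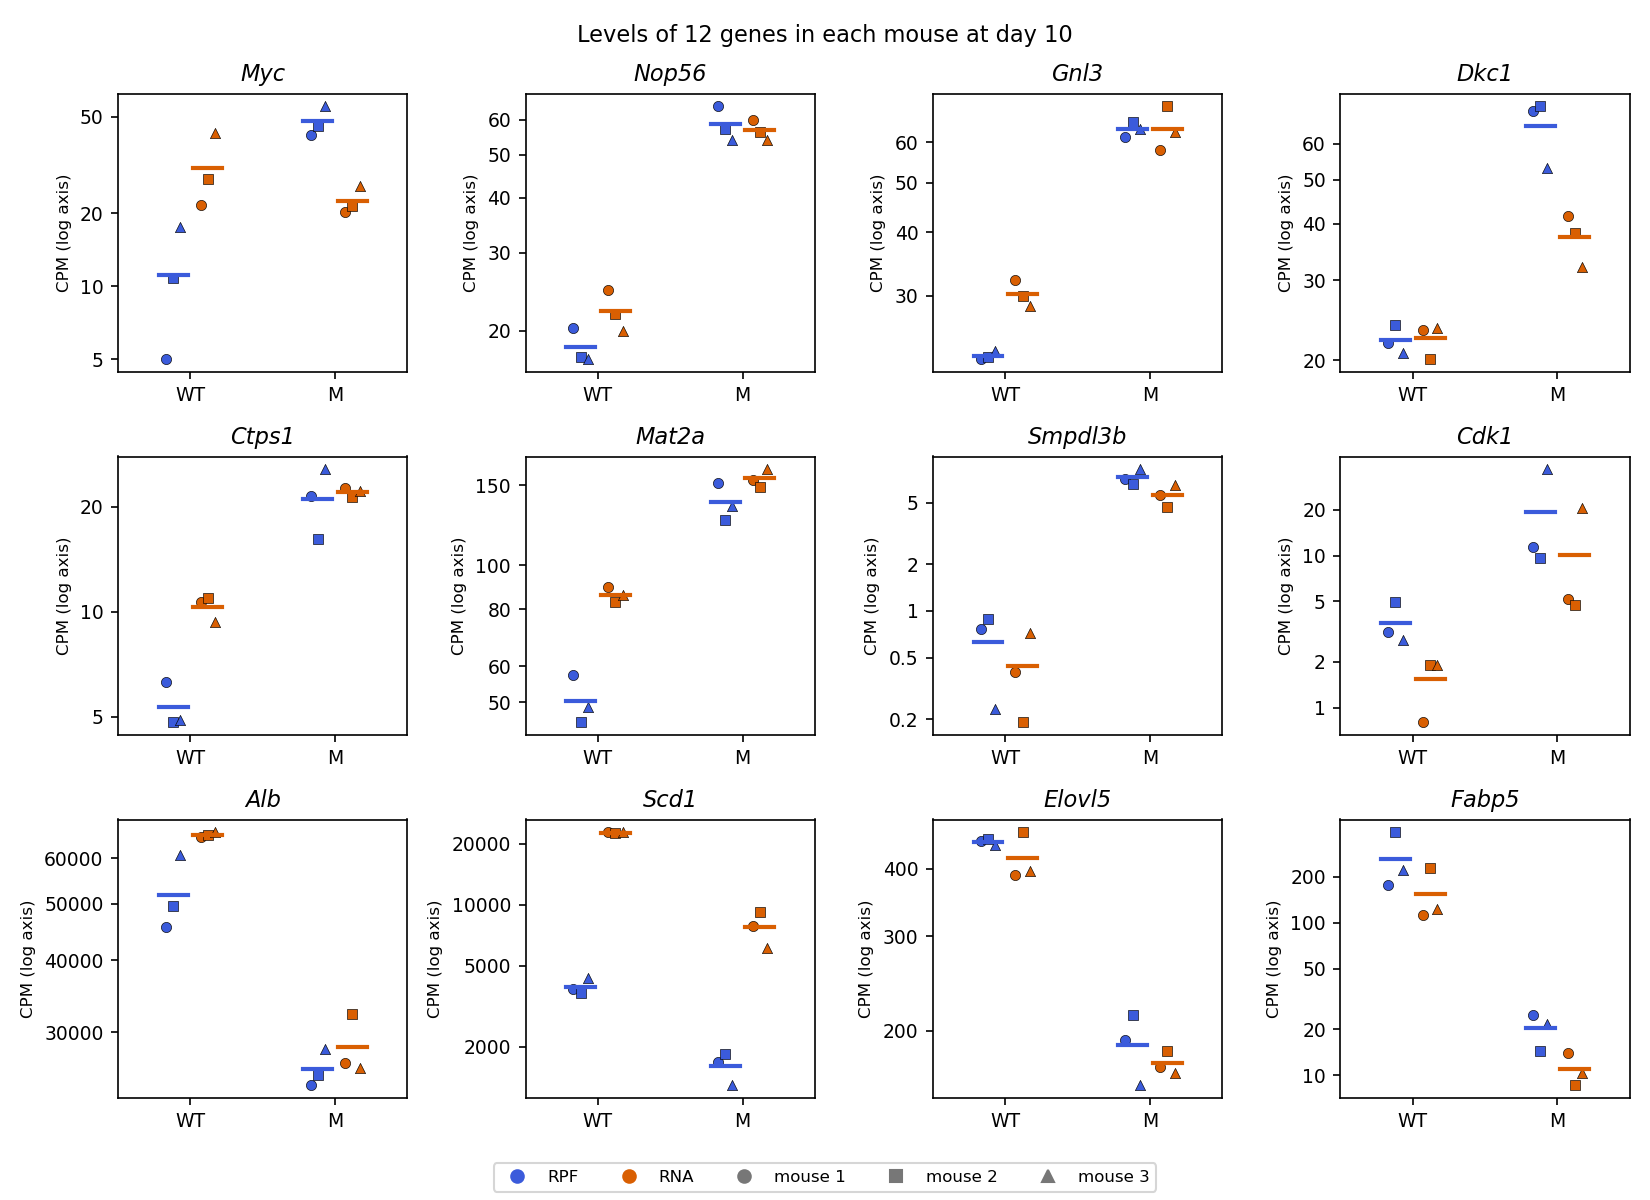
Levels of 12 genes in CPM on log axes that do not start at 0, for each of the 3 WT and 3 M mice, with RPFs in blue, RNA in orange and the group mean as a bar. WT and M mice did not overlap in either measure for any gene shown except the RNA of *Myc*, and M mouse 3 (triangle) was far above the other M mice for *Cdk1*.

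Among enzymes of drug and steroid metabolism more were called lower than higher in RPFs, whereas over all genes 8.85% were lower and 10.2% higher. Of 54 cytochromes P450 of families 1 to 4, RPFs of 12 fell and 3 rose (median -0.26). Of 46 conjugation enzymes 14 fell and 2 rose (median -0.30), or 19 and 3 with M mouse 3 left out. Relative to the WT mean, the P450 RPF medians of M mice 1, 2 and 3 were -0.23, -0.05 and -0.50, and that of WT mouse 2 was -0.26. For conjugation enzymes they were -0.29, -0.23 and -0.30, and -0.24 in WT mouse 2, so that the groups overlapped in both lists. Calls in the Cyp2c family rest on near-identical paralogs whose reads the alignment could have split, so single values are uncertain: RPFs of *Cyp2c40* were 14.0, 8.09 and 12.7 CPM in WT and 0.425, 0.356 and 1.41 CPM in M, and those of *Cyp2c68* 572, 431 and 551 CPM and 183, 227 and 223 CPM. A pair of abundant P450s of drug metabolism were not called. *Cyp2e1* was at 5863, 3818 and 6848 CPM in WT and 4428, 4609.8 and 4917 CPM in M (adjusted p = 0.472), and *Cyp3a11* at 5594, 3795 and 5231 CPM and 4553, 4844 and 3376 CPM (adjusted p = 0.551). WT mice spread widely in both, WT mouse 2 being the lowest of them.

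Zonation genes mark the position of a hepatocyte between portal and central vein. Of 22 zone 3 (pericentral) genes RPFs of 1 rose and 5 fell, and of 24 zone 1 (periportal) genes 2 rose and 3 fell. Over all genes tested 10.2% rose and 8.85% fell in RPFs, so that the lower calls lay above that share in zone 3 and near it in zone 1. In RNA the adjusted calls of zone 3 genes were even, with 3 higher and 3 lower of 23, against 8.7% and 7.13% of all genes. Their RNA median was -0.13, with 9 changes above 0 and 14 below. *Glul* (glutamine synthetase), of the pericentral rim, was at 819, 493 and 826 CPM in WT and 690.3, 693 and 687 CPM in M (adjusted p = 0.896). *Igfbp2*, a secreted binding protein of insulin-like growth factors, was at 332, 343 and 399 CPM and 294, 371 and 311 CPM (adjusted p = 0.533). Both overlapped between the groups. Calls in RPFs were made in fatty acid oxidation (1 higher and 3 lower of 35), glycolysis and gluconeogenesis (2 and 4 of 37), oxidative phosphorylation (5 and 3 of 78), proteasome subunits (1 and 1 of 38), hepatocyte transcription factors (3 and 4 of 33) and the IGF axis and mTOR (2 and 4 of 32). These shares were near or below those over all genes apart from the lower calls in glycolysis and gluconeogenesis, hepatocyte transcription factors and the IGF axis and mTOR, which were slightly above. With M mouse 3 left out, oxidative phosphorylation had 11 higher and 6 lower, and hepatocyte transcription factors 3 higher and 8 lower, against 13.1% and 11.8% of all genes. *Mtor* itself was at 114, 94.9 and 109 CPM in WT and 108, 111 and 118 CPM in M (0.08 ± 0.11, adjusted p = 0.669). Of 59 genes of the urea cycle and amino acid catabolism 9 rose and 5 fell, and 16 rose and 4 fell with M mouse 3 left out.

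Of 23 genes with male-biased liver expression RPFs of 10 fell and 1 rose, led by *Elovl3*, a fatty acid elongase, at 444, 215 and 444 CPM in WT and 77.2, 92.1 and 78.6 CPM in M (-2.15 ± 0.29, adjusted p = 0.00624). The steroid dehydrogenase gene *Hsd3b5* fell by 0.73 ± 0.12 on the log2 scale. Of 12 female-biased genes 5 fell and 1 rose, *Atp6v0d2*, a proton pump subunit (2.78 ± 0.40, adjusted p = 0.00583). Calls among genes biased to either sex were thus mostly lower, while over all genes 8.85% were lower and 10.2% higher. Acute-phase genes were split, with 4 of 32 higher and 8 lower in RPFs (median -0.15), and the medians of M mice 1, 2 and 3 were -0.37, -0.34 and 0.15 relative to the WT mean. With M mouse 3 left out 6 were higher and 14 lower (median -0.39). *Apcs*, serum amyloid P, fell from 136, 239 and 169.6 CPM to 51.5, 53.3 and 62.9 CPM (-1.70 ± 0.20, adjusted p = 0.00224), while *Orm3*, an orosomucoid gene with near-identical paralogs, was at 1.02, 0.197 and 0.467 CPM in WT and 24.2, 24.6 and 18.2 CPM in M (5.23 ± 0.33, adjusted p = 0.000141), with an RNA change of 2.61 ± 0.26. The abundant *Orm1* was not called (adjusted p = 0.172).

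The genes with the largest changes were of varied function. *Fabp5*, a fatty acid binding protein, was at 176, 392 and 220.1 CPM of RPFs in WT and 24.9, 14.3 and 21.6 CPM in M (-3.70 ± 0.40, adjusted p = 0.00551), and its RNA fell as much (-3.81 ± 0.37). The adhesion receptor *Adgrf1* was at 23.2, 55.6 and 42.0 CPM and 3.97, 3.35 and 2.59 CPM (-3.60 ± 0.38), and *Gabbr2*, a subunit of the GABA-B receptor, at 11.4, 13.5 and 8.28 CPM and 1.35, 1.64 and 1.56 CPM (-2.87 ± 0.23). In each of the 3 genes the highest M mouse was more than 4-fold below the lowest WT mouse. In the other direction *Smpdl3b*, a membrane phosphodiesterase, was at 0.766, 0.888 and 0.233 CPM of RPFs in WT and 7.15, 6.56 and 8.23 CPM in M (3.47 ± 0.32, adjusted p = 0.000441). *Serpinb1a*, a protease inhibitor with close paralogs, was at 2.55, 0.296 and 2.22 CPM and 34.3, 41.3 and 20.1 CPM (4.22 ± 0.58, adjusted p = 0.0125). *Mmp12*, a metalloproteinase known from macrophages, was at 0.425, 0.197 and 0.467 CPM and 5.38, 3.35 and 27.3 CPM (adjusted p = 0.0851), high in M mouse 3. *Sult2a7*, a sulfotransferase with close paralogs, was at 0.596, 0.493 and 0.350 CPM and 14.0, 15.9 and 3.11 CPM (adjusted p = 0.0309), lowest of the M mice in M mouse 3.

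Markers of liver cells other than hepatocytes were lower or not called. RPFs of 14 of 16 endothelial markers fell and 0 rose (median -0.45), and RNA of 10 of 16 fell and 0 rose. Over all genes 8.85% fell in RPFs and 7.13% in RNA. Their summed RPF level was 1396 to 1529 CPM in WT and 1003 to 1122 CPM in M, and their summed RNA 820.4 to 859 CPM and 573 to 625 CPM. *Kdr*, a receptor of vascular endothelial growth factor, was at 212, 248 and 256 CPM of RPFs in WT and 163, 170.0 and 146 CPM in M (-0.58 ± 0.12), and the scavenger receptor *Stab2* at 274, 305 and 316 CPM and 207, 219 and 189.8 CPM (-0.54 ± 0.11). The groups did not overlap in the sums or in these genes. Of 15 stellate cell and fibroblast markers 8 fell and 0 rose, with sums of 1244 to 1463 CPM in WT and 908 to 1001 CPM in M. Of 5 tested erythroid and platelet markers 4 fell, with RPF sums of 871 to 1105 CPM in WT and 451 to 759 CPM in M, among them the heme enzyme of red cells *Alas2* (-1.44 ± 0.19, adjusted p = 0.00321).

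RPFs of 16 Kupffer cell and macrophage markers showed 0 calls in edgeR in either direction (2 higher and 0 lower at an unadjusted p under 0.05), with sums of 757 to 1023 CPM in WT and 768, 776 and 1074 CPM in M mice 1, 2 and 3, M mouse 3 being the highest of the 6. In RNA their sum was 396 to 481 CPM in WT and 380.2, 360.1 and 572 CPM in M. With M mouse 3 left out 2 fell and 0 rose in RPFs (median -0.28), and 2 fell and 0 rose in RNA (median -0.32). Few lymphocyte (4 of 14), neutrophil and monocyte (6 of 16) and cholangiocyte (6 of 12) markers passed the filter, and of these 16 genes 1 was called, lower in M. Of 44 interferon-stimulated genes 12 fell and 0 rose in RPFs (median -0.37), with medians of -0.52, -0.45 and -0.13 in M mice 1, 2 and 3. With M mouse 3 left out 23 fell and 0 rose, and over all genes 8.85% fell with this mouse and 11.8% without it. M mouse 3 was thus higher than M mice 1 and 2 in macrophage markers, interferon-stimulated genes and dividing-cell genes, and the part of its cell content in those values was not tested.

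The cytosolic ribosomal proteins, the components of the ribosome itself, behaved unlike the biogenesis factors. RNA of 75 of 81 genes rose and 0 fell (median 0.80), in M mice 1, 2 and 3 by 0.86, 0.87 and 0.68. In RPFs 0 of 77 were called in edgeR in either direction, and 0 had an unadjusted p under 0.05 (median 0.22), and the mice did not move together: the RPF median was -0.21 in M mouse 1, -0.47 in M mouse 2 and 0.96 in M mouse 3. In 76 of the 77 genes M mouse 3 was the highest of the 6 mice in RPFs, and in 44 M mice 1 and 2 were both below all WT mice. These positions were found in 20.2% and 24.5% of all 10453 genes tested for TE. In RNA M mice 1 and 2 were above all WT mice in 76 of 77 genes, and M mouse 3 in 76, against 22.2% and 32.6% of all genes. *Rpl10a*, of the large subunit, was at 192, 184 and 204 CPM of RNA in WT and 458, 486 and 444 CPM in M (1.26 ± 0.11, adjusted p = 5.12e-05). Its RPFs were 101, 98.6 and 82.7 CPM in WT and 58.9, 49.7 and 231 CPM in M. The RNA level thus rose in all M mice, while the RPF level fell below WT in M mice 1 and 2 and rose above it in M mouse 3. Ribosomal protein genes have many processed pseudogenes, so single values are uncertain.

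When M mouse 3 was left out, RPFs of 39 of 77 ribosomal protein genes fell and 0 rose (median -0.33), and RNA of 76 of 81 rose and 0 fell (median 0.85). The RPF to RNA ratio was below all WT mice in M mice 1 and 2 for 76 of 77 genes, and above all WT mice in M mouse 3 for 51, against 14.0% and 24.7% of all genes. Its median relative to the WT mean was -1.10 in M mouse 1, -1.35 in M mouse 2 and 0.25 in M mouse 3. WT mice differed less, from -0.15 to 0.13.

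Messenger RNAs of ribosomal proteins and of several translation factors begin at a cytosine followed by a run of pyrimidines, the terminal oligopyrimidine (TOP) motif, through which mTOR and LARP1 are known to govern their translation. At the RefSeq start (GRCm38.p6) a C followed by 4 bases that are C or T was sought on the gene's strand, in any entry of a gene. It was found in 24.6% of 57 ribosomal protein genes with an entry and in 27.3% of 11 other known TOP mRNAs. The same held for 0 of 68 ribosome biogenesis genes and for 2.92% of the 8321 genes with an entry among all tested for TE. A RefSeq start can differ from the start used in liver by some bases. Windows of 30 bases that reach 10 bases before the start are shown for genes of this pattern, with the pyrimidine run from the start in capitals. They lie at chr7:4792955-4792984 (+ strand) for *Rpl28*, chr17:33955646-33955675 (- strand) for *Rps18*, chr9:120571507-120571536 (+ strand) for *Rpl14*, chr3:90213629-90213658 (- strand) for *Rps27*, chr7:118116128-118116157 (- strand) for *Rps15a* and chr11:48800350-48800379 (+ strand) for *Rack1*.
Rpl28: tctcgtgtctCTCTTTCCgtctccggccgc
Rps18: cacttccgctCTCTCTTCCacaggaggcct
Rpl14: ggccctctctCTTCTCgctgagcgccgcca
Rps27: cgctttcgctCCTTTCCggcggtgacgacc
Rps15a: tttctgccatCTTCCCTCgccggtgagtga
Rack1: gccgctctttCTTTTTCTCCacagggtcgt

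RPFs of *Rpl28*, a protein of the large subunit, were 141, 136 and 125 CPM in WT and 78.5, 70.9 and 247 CPM in M, and RNA was 88.2, 90.2 and 82.9 CPM and 192, 165 and 183 CPM. RPFs of *Rps27*, of the small subunit, were 34.7, 38.7 and 35.3 CPM and 15.3, 14.3 and 50.1 CPM, and RNA was 189.7, 227 and 251 CPM and 264, 275 and 262 CPM. *Rack1*, a signalling scaffold on the small subunit, had RPFs of 223, 204 and 166 CPM and 192, 170.2 and 451 CPM and RNA of 358, 352 and 353 CPM and 672, 738 and 591 CPM. In all 3 genes M mice 1 and 2 lay near or below WT and M mouse 3 above it in RPFs, and every M mouse was above every WT mouse in RNA.

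Of 17 other mRNAs known to carry the motif, a list chosen after these values had been seen, 10 had RPFs below every WT mouse in M mice 1 and 2 and above every WT mouse in M mouse 3. This order was found in 2.72% of all 10453 genes. RPFs of 1 rose and 0 fell, and with M mouse 3 left out 1 rose and 9 fell. Their RPF median was -0.40 and -0.55 in M mice 1 and 2 and 0.63 in M mouse 3, and RNA of 13 rose and 0 fell. *Eef2*, the elongation factor of translocation, was at 1205, 957 and 811 CPM of RPFs in WT and 279, 254 and 1406 CPM in M, and its RNA at 1356, 1166 and 1332 CPM and 2091, 2183 and 1584 CPM (0.60 ± 0.16, adjusted p = 0.0290). *Eef1a1*, the elongation factor that delivers tRNA, was at 3632, 3335 and 3157 CPM and 1222, 1034 and 5046 CPM of RPFs. M mice 1 and 2 were more than 2-fold below the lowest WT mouse in both, and M mouse 3 was above every WT mouse. *Tpt1*, a translationally controlled protein, was at 156, 159 and 157 CPM and 83.2, 77.6 and 229 CPM, with the same order.

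**Figure D4:**
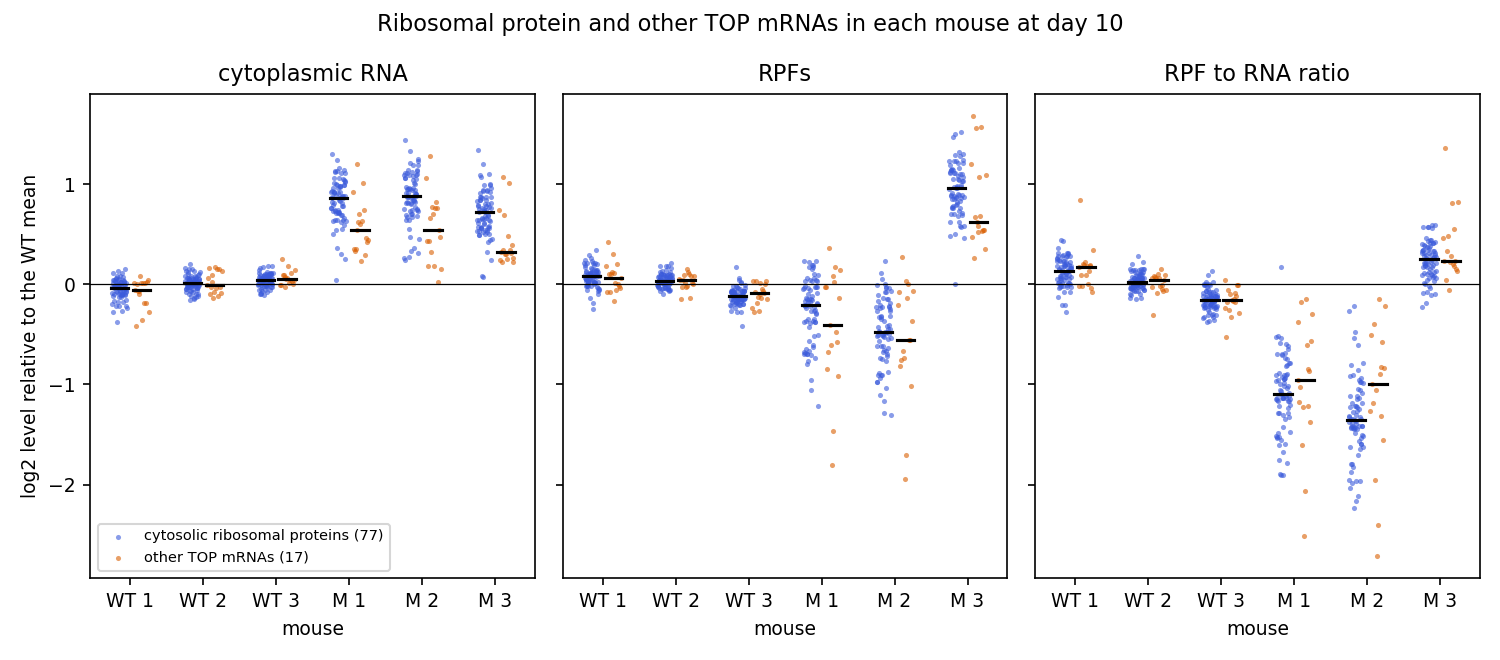
Each point is a gene in 1 mouse, cytosolic ribosomal proteins in blue (77) and other TOP mRNAs in orange (17), as the log2 level relative to the WT mean in cytoplasmic RNA, RPFs and the RPF to RNA ratio, with black bars at the medians. All 3 M mice lay above WT in RNA, while in the ratio M mice 1 and 2 lay at medians of -1.10 and -1.35 for ribosomal proteins and M mouse 3 at 0.25.

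As a share of all counts, ribosomal proteins took 3.24%, 3.38% and 3.43% of RNA in M mice 1, 2 and 3 and 1.60% to 1.78% in WT at day 10. They took 0.899%, 0.778% and 2.09% of RPFs in M and 0.780% to 0.976% in WT. The ratio of these shares was 0.278 and 0.230 in M mice 1 and 2, close to or below the 3 M mice of day 4 (0.289 to 0.312), and 0.611 in M mouse 3, next to the WT mice of day 10 (0.471 to 0.610). The WT mice of day 4 had ratios of 0.306 to 0.405, lower than those of day 10, so that the level in WT also differed between the days. Relative to the WT mean of the same day, the order was different. Median log2 RPF levels of ribosomal proteins were 0.71, 0.48 and 0.65 in the M mice of day 4. In M mice 1, 2 and 3 of day 10 they were -0.20, -0.47 and 0.98 in this comparison of both days. Medians of the RPF to RNA ratio were -0.17, -0.21 and -0.10 at day 4 and -1.09, -1.35 and 0.27 at day 10. By both, M mouse 3 was closer than M mice 1 and 2 to the M mice of day 4. In the series M mouse 3 was not alone in standing apart from its group: BM mouse 1 of day 10 had a ratio of 0.610, against 0.307 and 0.334 in the other BM mice of that day.

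**Figure D5:**
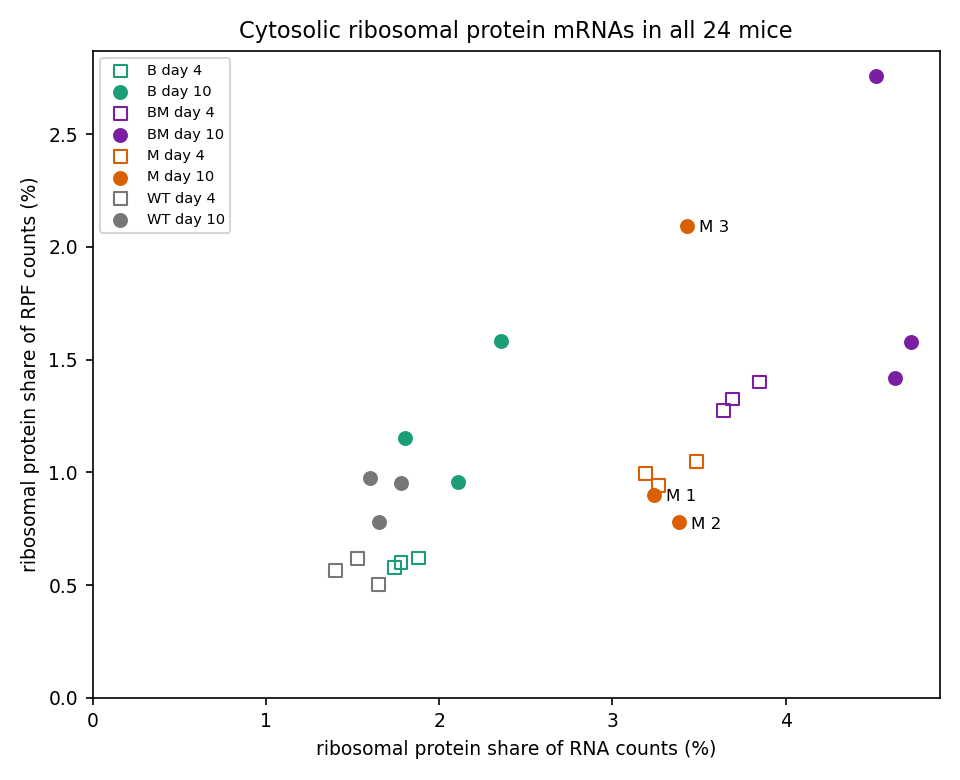
Each of the 24 mice is a point, with the share of RNA counts taken by cytosolic ribosomal protein genes on the horizontal axis and their share of RPF counts on the vertical axis, both in %, by genotype (colour) and day (open squares day 4, filled circles day 10). M mice 1 and 2 of day 10 sat beside the M mice of day 4, and M mouse 3, at 2.09% of RPF counts, sat above all mice except BM mouse 1 of day 10. The shares are not relative to the WT mice of the same day, which differed between the days.

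TE was tested as the difference between the RPF and the RNA change of each gene. Of 10453 genes 0 were called higher and 0 lower in edgeR (0% and 0%; smallest adjusted p 0.842), with 139 higher and 174 lower at an unadjusted p under 0.05, and DESeq2 called 2 higher and 1 lower. With each mouse as a block, which joins the RPF and RNA libraries of an animal, 34 rose (0.325%) and 21 fell (0.201%). Without M mouse 3 and with no block 14 of 10593 rose (0.132%) and 127 fell (1.2%), and with both changes 108 rose (1.02%) and 283 fell (2.67%). Of the 127 genes lower without M mouse 3, 72 (56.7%) were ribosomal proteins and 12 were other TOP mRNAs. Under the block without it 74 of the 283 (26.15%) and 13 were. With all 6 mice under the block, 0 of the 34 and 0 of the 21 were ribosomal proteins by edgeR. No other mouse left out gave any TE call without the block. The TE of ribosomal proteins in M livers at day 10 was therefore lower in M mice 1 and 2 and not in M mouse 3, and the test over 3 mice made no call.

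Among genes whose TE rose under the block, *Myc* had the smallest adjusted p, with a log2 TE change of 2.60 ± 0.17 (adjusted p = 8.13e-13). Its RPF to RNA ratio relative to WT was 2.57, 2.61 and 2.60 on the log2 scale in M mice 1, 2 and 3, closer together than the WT mice at -0.47, 0.21 and 0.26. As the share of *Myc* counts that came from the transgene cannot be told, RPFs and RNA may hold it unequally, and this value need not be the TE change of 1 mRNA. Others were *Dkc1*, of the pseudouridylation particles, at 0.81 ± 0.15 (adjusted p = 0.00268), *Nop58*, which pairs with Nop56 in the methylation particles, at 0.61 ± 0.13 (adjusted p = 0.0153), *Mat2a* at 0.60 ± 0.11 (adjusted p = 0.00456), *Ctps1* at 0.87 ± 0.22 and *Atic* at 0.49 ± 0.12. *Polr3g*, a subunit of RNA polymerase III, was at 1.02, 0.888 and 1.40 CPM of RPFs in WT and 3.54, 4.13 and 3.11 CPM in M, while its RNA was 13.1, 10.7 and 13.2 CPM and 12.5, 14.5 and 7.07 CPM (TE change 1.85 ± 0.32, adjusted p = 0.00174). Its RPF levels were separate and its RNA levels overlapped. For *Bzw2*, a mimic of initiation factor eIF5, the TE change was 0.88 ± 0.18 (adjusted p = 0.0120).

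Of the 34, 8 belonged to the list of S phase and G2/M genes, among them the chromatin helicase *Hells* (1.95), the ribonucleotide reductase subunit *Rrm2* (1.18), the anaphase activator *Cdc20* (1.83) and the spindle protein *Tpx2* (1.87), of which those with few counts have wide errors. Genes whose TE fell under the block included *Mlxipl* (-0.54 ± 0.12, adjusted p = 0.0216), *Scap* (-0.53 ± 0.12, adjusted p = 0.0427), *Larp1*, the repressor of TOP mRNAs (-0.53, adjusted p = 0.0110), the sorting receptor *Sort1* (-0.62), the urea cycle enzyme *Ass1* (-0.39) and *Cyp2c40* (-2.26 ± 0.26, adjusted p = 1.00e-05). For *Mlxipl* RNA rose from 33.4, 31.6 and 33.4 CPM to 46.2, 62.2 and 45.9 CPM while RPFs were 118, 106 and 112 CPM and 111, 139.7 and 112 CPM. *Cyp2c40*, and *Orm3* and *Orm2* whose TE rose, have near-identical paralogs that the RPF and RNA alignments may have split unequally. Of 75 ribosome biogenesis genes tested for TE, 2 rose and 0 fell under the block (median 0.06), so for few of them the RPF and RNA changes differed beyond their error.

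M mouse 3 was also examined across all genes. The deviations of the M mice from the WT mean had Pearson correlations over 11300 genes of 0.86 between M mice 1 and 2, 0.64 between 1 and 3 and 0.61 between 2 and 3 in RPFs, and in RNA over 11143 genes 0.75, 0.63 and 0.57. All share the same WT mean. The spread (SD) of the log2 RPF to RNA ratio relative to WT over 1970 genes with a mean over 50 CPM in both was 0.318 and 0.360 in M mice 1 and 2, 0.178 in M mouse 3 and 0.0993 to 0.128 in WT mice, so in this measure M mouse 3 was the M mouse nearest to WT. The gene farthest above the other mice in its RPFs was *Gsta1*, a glutathione transferase with close paralogs, at 72.1, 50.5 and 49.7 CPM in WT and 46.0, 57.6 and 221 CPM in M. It was followed by *Eef1b2*, *Rpl12*, *Npm1* and *Rps20*. *Hyou1*, *Creld2* and *Herpud1* of the endoplasmic reticulum stress response were lowest in M mouse 3, *Hyou1* at 649, 1048 and 719 CPM in WT and 508, 442 and 251 CPM in M. In RNA M mouse 3 was not apart by this measure, with 1 gene above and 1 below the range of the other mice by more than 1 log2 unit among 2865. WT mouse 2 had 3 above and 1 below.

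The change in M at day 10 was last compared with that in M against WT at day 4, as a difference of differences over 12 mice. In RPFs 71 of 11530 genes had a higher M effect at day 10 (0.616%) and 73 a lower one (0.633%), and in RNA 25 (0.216%) and 72 (0.623%) of 11564. For TE 0 of 10825 were called in either direction in edgeR, with 195 at an unadjusted p under 0.05, and DESeq2 called 0. Ribosome biogenesis RPFs gained at day 10, with 13 of 76 higher and 0 lower (median of the difference 0.38) and 3 higher and 0 lower in RNA. The median RPF level of the list relative to the WT of the same day was 0.29 to 0.33 in the M mice of day 4 and 0.60 to 0.73 in those of day 10. *Nop56* differed by 0.89 ± 0.16 and *Gnl3* by 0.79 ± 0.13 between the days. *Mat2a* had the smallest p of the genes with a higher effect (0.94 ± 0.15, adjusted p = 0.0244).

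Cholesterol and fatty acid synthesis moved the other way, with a lower M effect at day 10 for 8 of 41 genes in RPFs and 11 of 41 in RNA and a higher one for 0 (medians -0.47 and -0.45). *Acly* differed by -1.48 ± 0.23 in RPFs (adjusted p = 0.0244) and -1.33 ± 0.19 in RNA. Of 32 acute-phase genes the M effect was higher at day 10 for 4 in RPFs and 3 in RNA and lower for 0. Cytosolic ribosomal proteins had 0 calls by edgeR in RPFs, RNA or TE. Without M mouse 3 of day 10 the RPF calls of this difference rose to 277 higher and 405 lower, so that their number depends on this mouse. They fell from 144 to between 36 and 59 without WT mouse 1 or 3 or M mouse 1 or 3 of day 4, or WT mouse 3 or M mouse 1 of day 10. The RNA calls fell from 97 to between 38 and 62 without any of these or WT mouse 1 of day 10, and rose to 167 without WT mouse 2 of day 10. The 2 comparisons share no mouse.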

How the data were processed

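Ribosome profiling and rRNA-depleted cytoplasmic RNA sequencing were done on the same livers, 1 library of each per mouse. The deposited RPF counts came from reads that the authors had trimmed with Cutadapt, cleared of rRNA and tRNA, aligned with BBmap to 1 GENCODE vM27 transcript per gene and deduplicated by UMI, and they cover reads of 30 to 38 nt within the coding sequence, leaving aside 20 codons at its start and 10 at its end. For RNA the authors deposited RSEM 1.3.3 expected counts per isoform from Bowtie2 2.3.5.1 alignments. Here expected counts were summed per gene and rounded, and 99.9% or more were already whole (within 0.005). An RPF transcript with no line was taken as 0.

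Counts were tested in R 4.3.3 with edgeR 4.0.16 (quasi-likelihood test, TMM scaling, filterByExpr with 10 counts in a library and 15 in total, Benjamini-Hochberg adjustment, threshold 0.1), for RPFs, RNA and TE (the interaction of library type and genotype). The RPF and RNA deviations of the same mouse from its group mean correlated at 0.24 to 0.58, so the mouse block is given beside the TE result. Between replicates of the same group at day 10, chi-square per degree of freedom was at least 4.49, so none of these libraries repeated another of its group. Other pairs of libraries were not compared. Per-mouse log2 values used a pseudocount of 0.5 CPM. The fits were tested on simulated data.

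The comparison, the 46 gene lists and the alternatives were chosen with earlier results of these data known. The S phase and G2/M list is that of Seurat 5.3.0. Named were *Myc*, the 12 largest non-overlapping changes per direction and measure with 10 counts in each library of the higher group, up to 5 called members per list, the 6 smallest TE p-values and the 8 smallest day-difference p-values per direction, the 8 genes in which M mouse 3 was farthest out, and the defining genes of the lists. Other list members and other genes called for TE under the block were named after their values were seen.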

Additional observations from a re-analysis of the deposited data

Results flagged for a closer look

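The effect of M differed between day 10 and day 4, by a test of the difference itself (edgeR, adjusted p under 0.1), in RPFs of 71 genes with a higher and 73 with a lower effect at day 10 and in RNA of 25 and 72 genes. All differences below are log2, day 10 minus day 4. The RPF genes with the smallest p of a higher effect were *Mat2a* (0.94), *Slc4a4* (0.90), *Ddx5* (0.83), *Wdr43* (0.75), *Gnl3* (0.79), *Baz1a* (1.26), *Nop2* (0.76) and *Nop56* (0.89). Those of a lower effect in RPFs were *Fras1* (-1.75), *Reck* (-1.50), *Etnppl* (-1.26), *Tmem63a* (-1.25), *Cyp2c68* (-1.09), *Acly* (-1.48), *Fam13a* (-2.05) and *Camk1d* (-0.80).

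In RNA the effect was higher at day 10 for *Orm3* (2.80), *Nop14* (1.09), *Apol9a* (1.09), *Saa4* (1.57), *Ddit4* (1.50), *Rnase4* (0.97), *Mat2a* (0.61) and *Hp* (1.46), and lower for *Fam13a* (-2.13), *Gabbr2* (-2.42), *Etnppl* (-1.25), *Acacb* (-1.16), *Acly* (-1.33), *Fras1* (-1.72), *Cyp2c67* (-1.13) and *Slco2a1* (-1.07). *Gnl3*, *Nop2*, *Nop56*, *Nop14* and *Wdr43* are ribosome biogenesis genes, *Acly* and *Acacb* serve fatty acid synthesis, and *Hp*, *Saa4* and *Orm3* are acute-phase genes, *Orm3* and *Cyp2c67* having close paralogs.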

How the results depend on the processing

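All alternatives but the mouse block with each mouse left out, and the list of other TOP mRNAs, were planned. Of the named genes, 2431 of 2739 values in RPFs and 1949 of 2200 in RNA kept direction and threshold, 308 and 251 missed the threshold, and 0 reversed, and for the difference between the days 531 of 682 and 473 of 607 held, 151 and 134 missed it and 0 reversed. Counts of calls, both directions together, moved by more than 1.5 times as follows. RPF calls (2147) were 1325 at an adjusted p under 0.05 and 1163 to 2834 with a mouse left out, and RNA calls (1764) 910 to 1730 with a mouse left out. TE calls (0) were 3 with DESeq2, 55 with the mouse as replicate block, 0 to 141 with a mouse left out and 27 to 391 with block and a mouse left out (27, 45 and 27 for WT mice 1 to 3, 39, 63 and 391 for M mice 1 to 3). For the difference between the days, RPF calls (144) were 61 at 0.05, 258 with DESeq2, 30 with all 24 mice in 1 fit and 36 to 682 with a mouse left out, RNA calls (97) 48, 159, 26 and 38 to 167, and 180 without a filter, and TE calls (0) 3 with the mouse block and 0 to 80 with a mouse left out.

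List medians moved beyond the mice's SD with a mouse left out for ribosome biogenesis (RPFs 0.63 to 0.71, RNA 0.58 to 0.67), nucleotide synthesis (RPFs 0.47 to 0.61, TE 0.023 to 0.11), cholesterol and fatty acid synthesis (RNA -0.70 to -0.58), endoplasmic reticulum chaperones (RPFs -0.69 to -0.35, RNA -0.68 to -0.36) and endothelial markers (RPFs -0.53 to -0.42), and with 10 counts in every library for S phase and G2/M genes (RPFs 0.59, TE 0.19). The causes were not tested. Replicate numbers did not pair M with WT mice (correlations of -0.21 to 0.17), and that block gave 1659 RPF and 1472 RNA calls. RNA depth was lower (median 4936987 counts against 12282376), and TE rests on the errors of both; how depth limits each was not tested.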

Other observations

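Cytosolic and mitochondrial chaperonins rose in part, with RPFs of 6 of 25 chaperonins and heat shock proteins higher and 1 lower in M at day 10, or 7 and 3 with M mouse 3 left out. *Hspd1*, the mitochondrial chaperonin, was at 639, 738 and 658 CPM of RPFs in WT and 953, 951 and 1139 CPM in M (0.58 ± 0.13, edgeR adjusted p = 0.0196), and *Cct5* and *Cct3* of the TRiC chaperonin rose by 0.49 ± 0.10 and 0.41 ± 0.11. Genes of the integrated stress response went both ways, with 4 of 21 higher and 3 lower, against 10.2% higher and 8.85% lower over all genes tested, and with M mouse 3 left out 4 of 23 were higher and 8 lower. *Ddit4*, an inhibitor of mTOR complex 1, rose by 1.48 ± 0.24 (adjusted p = 0.00624), as did *Sesn2* (1.13 ± 0.23), while *Atf4*, the transcription factor of the response, fell by 0.68 ± 0.23 on the log2 scale (adjusted p = 0.0854). Of 18 clock genes 3 fell and 0 rose, *Rora* (-1.13 ± 0.15), *Per2* (-1.07 ± 0.30) and *Cry1* (-1.04 ± 0.26).

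Of 24 genes that mark the fasted or fed state 8 fell and 0 rose, against 8.85% and 10.2% of all genes. They comprised genes of the fed state, such as *Pnpla3*, a lipid hydrolase, and of the fasted state, such as *Pck1*, of gluconeogenesis (-0.94 ± 0.19, adjusted p = 0.0141), and *Pdk4*, a brake on glucose oxidation (-0.99 ± 0.22, adjusted p = 0.0184). In iron and metal homeostasis 3 of 23 rose and 4 fell, or 3 and 7 with M mouse 3 left out. The iron hormone *Hamp* was at 409.8, 235 and 351 CPM in WT and 413, 407 and 333 CPM in M (adjusted p = 0.519), with the groups overlapping. In bile acid synthesis and transport 2 of 30 rose and 4 fell. Of 19 epithelial, progenitor and oncofetal genes 1 rose, *Afp* (alpha-fetoprotein), at 1.45, 2.66 and 1.87 CPM in WT and 4.60, 4.13 and 5.11 CPM in M (1.22 ± 0.26, adjusted p = 0.0155), and 2 fell (median -0.09). The RPF medians of this list were -0.27, -0.23 and 0.34 in M mice 1, 2 and 3, and with M mouse 3 left out 2 of 21 rose and 4 fell (median -0.29). *Moxd1*, a monooxygenase, was near 0 in WT RPFs, at 0, 0.691 and 0 CPM, and at 51.3, 10.5 and 14.2 CPM in M (adjusted p = 0.0423), M mouse 1 being the highest.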
